A study of Mus musculus with 18 samples.

Results

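Lypd3, Lypd5, Ly6d, Ly6g6c, Slurp1 and Plaur are 6 genes of the Ly6/uPAR family that were measured in skin flaps of mice. They were picked by name from a table of 27743 genes, with earlier results of these data known, and all 6 were present and passed the filter on low values that left 13078 genes. The choice was made with the differences between spacer groups and Control in view, so those differences are given below as a description. How many of the 6 genes passed a test against Control is given below, and again under other processing at the end. Nothing about the genes is read from it. The level of a gene is given in FPKM, the fragments counted on a gene divided by its length and by the library's total, which allows comparison between genes of different length.

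The flaps were collected after 7 days. Control flaps received no treatment after the flap was made, and in the other 5 groups a printed mesh spacer lay under the flap. These groups carry the labels D15L100, D15L150, D15L200, D100L150 and D150L150. The meshes differed in diameter and spacing, but the labels give no unit or meaning for the D and L numbers. Each of the 6 groups had 3 libraries, numbered 1 to 3, with 28122056 to 34881279 counted fragments each. The sources used here give no strain, age or number of animals, and they do not say that the 3 libraries of a group stand for 3 animals. Any p-value therefore measures the spread among these libraries alone, and that spread may be technical.

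Proteins of the Ly6/uPAR family share a small domain of finger-like loops held together by disulfide bonds. Most are tethered to the outer cell surface by a glycosylphosphatidylinositol (GPI) anchor, and a few are secreted. In the epidermis, Lypd3 and Lypd5 encode anchored proteins of the layers above the basal cells, Ly6d encodes an anchored protein of stratified epithelia, and Slurp1 encodes a secreted protein that acts on nicotinic acetylcholine receptors. Inherited loss of human SLURP1 causes a thickening of the skin of palms and soles. Plaur encodes the receptor of urokinase, which focuses plasmin formation at the surface of migrating cells and leukocytes. Ly6g6c lies in the major histocompatibility complex, and its function is little known.

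The 6 genes sit at 3 places of the mouse genome (GENCODE M21, GRCm38). On chromosome 7, Lypd5 (24349196 to 24355109), Plaur (24462484 to 24475968) and Lypd3 (24636550 to 24641118) are all on the plus strand. Lypd5 and Plaur are 107374 bases apart, with 3 other protein-coding genes between them. On chromosome 15, Slurp1 (74724318 to 74728034) and Ly6d (74762056 to 74763620) are on the minus strand, with the family members Lypd2, Slurp2 and Lynx1 between them. Ly6g6c lies on chromosome 17 (35065388 to 35070050). Of the 6 gene bodies, 3 overlap another annotated gene on the opposite strand, namely Slurp1 with Them6 over 322 bases, Ly6g6c with Mpig6b over 797 and Lypd3 with Gm26550 over 1367. Whether the authors' counting used strand is not given in the sources used here, so reads in these stretches cannot be assigned with certainty.

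On chromosome 7 Plaur lies between Lypd5 and Lypd3, which had like patterns in these flaps (r = 0.94 over 18 libraries) while Plaur differed from both, so the 250 bases before each of their start sites are shown, from RefSeq (GRCm38.p6, plus strand, 5′ to 3′). RefSeq windows were found for 4 of the 6 genes. Capitals mark matches to the motif of AP-1 (TGANTCA) or of C/EBP (TTGCNNAA), searched on both strands, factors of stress and differentiation responses.
Lypd5, chr7:24348946-24349195: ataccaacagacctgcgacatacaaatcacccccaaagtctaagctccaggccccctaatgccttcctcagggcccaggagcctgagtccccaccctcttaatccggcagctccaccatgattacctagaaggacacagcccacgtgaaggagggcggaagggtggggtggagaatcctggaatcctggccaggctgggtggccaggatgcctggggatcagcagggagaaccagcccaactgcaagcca
Plaur, chr7:24462233-24462482: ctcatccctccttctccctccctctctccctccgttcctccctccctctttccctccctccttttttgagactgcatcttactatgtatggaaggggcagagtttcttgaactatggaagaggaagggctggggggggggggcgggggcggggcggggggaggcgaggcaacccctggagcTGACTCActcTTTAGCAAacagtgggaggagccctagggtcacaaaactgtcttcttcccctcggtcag
Lypd3, chr7:24636320-24636569: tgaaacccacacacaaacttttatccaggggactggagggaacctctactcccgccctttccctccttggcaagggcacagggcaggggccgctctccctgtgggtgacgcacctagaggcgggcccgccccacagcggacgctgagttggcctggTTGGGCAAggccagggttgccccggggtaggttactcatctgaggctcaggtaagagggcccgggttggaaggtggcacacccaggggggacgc
Over the whole windows, which reach 50 bases past the start, Plaur held 1 AP-1 match, starting 69 bases before the start site, and 1 C/EBP match at 59 bases. Lypd3 held 1 C/EBP match at 94 bases, and Lypd5 held neither. Of 32544 RefSeq windows of that length, 7.79% held the AP-1 letters and 10.8% the C/EBP letters. The Ly6g6c window held the TATA box letters TATAAA 30 bases before its start and CCAAT at 87 and 38 bases, letters that 13.6% and 37.4% of all windows held at any position. The grainyhead-like motif AACCNGTT (2.09% of windows), the NF-kB motif (0.415%) and the p53 family motif (0.624%) were also searched on both strands and matched none of the 4 windows. A match of letters is a description of the window and does not show that a factor binds there.

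Control 1 stood apart from the other Control libraries in skin content, and several results below rest on it. The summed level of 10 basal keratinocyte markers (led by Krt14 and Krt5) was 1302 FPKM in Control 1 and 3707 and 3177 in Control 2 and 3. The summed level of 12 suprabasal markers was 252 against 1379 and 1213, and Krt10, the keratin that defines suprabasal cells, was at 4.0, 49.6 and 56.4 FPKM. All flaps held the defining markers of skin, with Krt14 at 788 FPKM or more in each library. They also held skeletal muscle, with Acta1 at 731 to 5972 FPKM. In bulk tissue, fewer cells of a type and less RNA per cell cannot be told apart, which holds for every value below.

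Lypd5, a protein of the outermost living epidermal layers, had the largest difference from Control of the 6 genes. It lay at 2.08, 8.06 and 13.1 FPKM in Control 1, 2 and 3, from 90, 368 and 558 fragments. In D15L100 it was at 41.9, 75.5 and 4.78, in D15L150 at 64.2, 81.7 and 136, and in D15L200 at 91.8, 94.7 and 94.9. In D100L150 the values were 111, 78.0 and 70.5, and in D150L150 96.3, 56.5 and 74.0. All libraries of the last 4 groups lay above all Control libraries, while D15L100 3 lay among the Control values. The D15L200 libraries were nearly alike, at 93.8 ± 1.72 FPKM (SD, n = 3), where D15L150 had nearly the same mean with a much wider spread, 93.9 ± 37.3. On the log2(FPKM + 1) scale, on which all differences below are given and which understates those of low genes, Lypd5 was higher than Control by 3.22 ± 0.57 (SE) over the mean of the 5 spacer groups. Without Control 1 the difference was 2.59 ± 0.63.

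Lypd3 was higher than every Control library in all 15 spacer libraries, and no other of the 6 genes was. Control 1, 2 and 3 had 27.3, 55.9 and 60.2 FPKM, and D15L100 had 115, 165 and 63.8, so that D15L100 3 cleared the highest Control value narrowly. The other libraries ran from 135 in D15L150 1 to 389 in D15L200 3. Over all genes tested, 0.795% lay above Control in all 15 spacer libraries. In order of group means Lypd3 was at 280 ± 95.3 in D15L200, 268 ± 81.2 in D100L150, 255 ± 34.8 in D150L150, 200 ± 80.0 in D15L150, 115 ± 50.7 in D15L100 and 47.8 ± 17.9 in Control. Neighbours in that order overlapped, except D15L100 and Control. The difference over the spacer groups was 2.16 ± 0.30, and 1.80 ± 0.33 without Control 1.

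Ly6d was the most abundant of the 6 genes. Its Control level was 191 ± 86.1 FPKM, from 95.5 in Control 1 to 263 in Control 2, and D15L100 followed at 398 ± 198. The other 4 groups had close means with different spreads, 803 ± 501 in D15L150, 904 ± 155 in D15L200, 872 ± 115 in D100L150 and 920 ± 200 in D150L150. Every library of these 4 groups exceeded the highest Control library, the lowest being D15L150 1 at 390. D15L100 3, at 208, did not. The difference over the spacer groups was 2.01 ± 0.36, and 1.58 ± 0.38 without Control 1.

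Ly6g6c depended more on Control 1 than the 3 genes above. It was at 8.31 FPKM in Control 1 and at 96.9 and 103 in Control 2 and 3. D15L100 had 204, 302 and 47.4, of which the last lay below Control 2 and 3. Group means were 352 ± 156 in D150L150, 335 ± 57.1 in D15L200, 332 ± 133 in D15L150 and 229 ± 62.0 in D100L150, with no overlap with Control in these 4 groups. The difference of 2.50 ± 0.62 over the spacer groups became 1.35 ± 0.50 without Control 1.

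**Figure D1:**
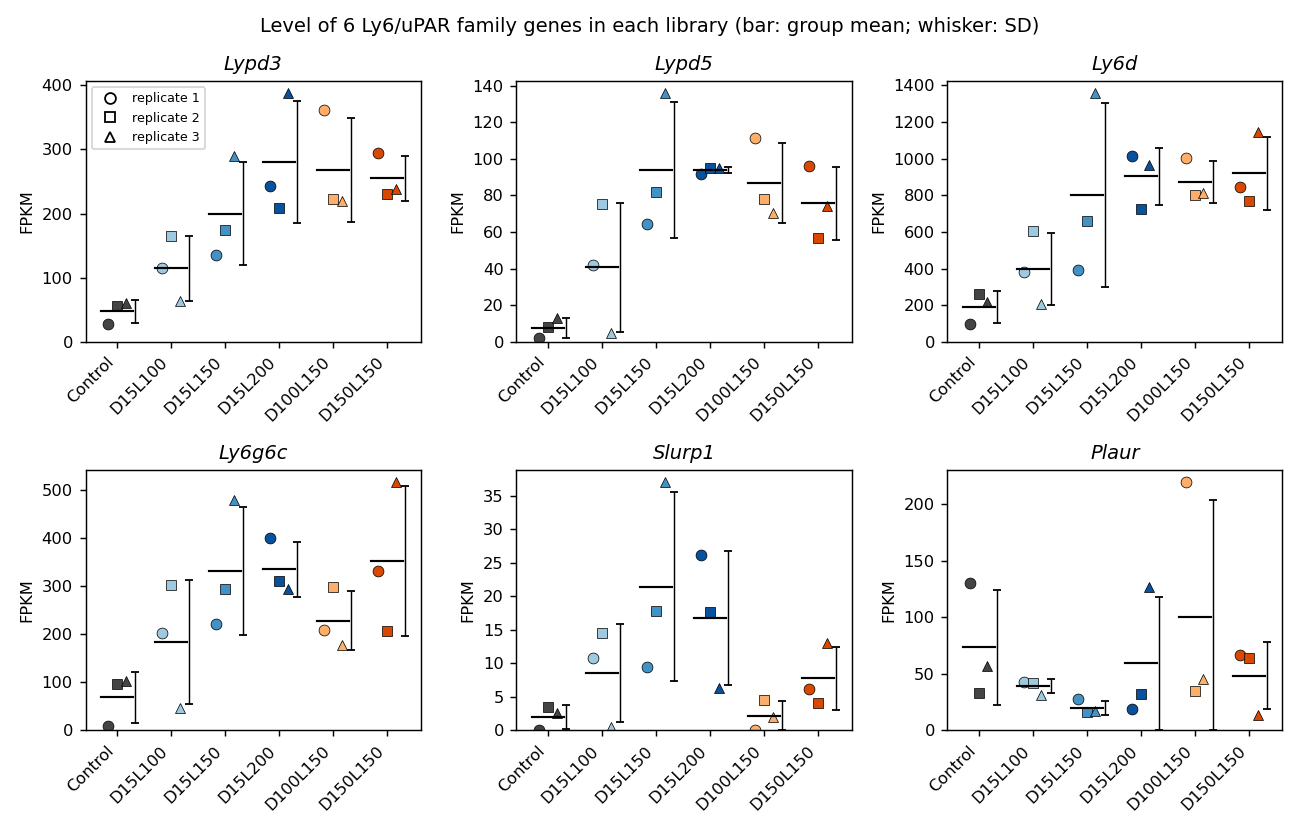
FPKM of the 6 genes (linear axes from 0) in each of the 18 libraries by group; symbols give the replicate number, bars the group means and whiskers the SD of 3 libraries, cut at 0. Lypd3, Lypd5, Ly6d and Ly6g6c have their lowest value in Control 1 (27.3, 2.08, 95.5 and 8.31 FPKM), Slurp1 is highest in D15L150 and D15L200, and Plaur has 1 high library in each of Control, D15L200 and D100L150.

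Slurp1, the secreted member, was the least abundant and divided the spacer groups differently. Control 1, 2 and 3 had 0, 3.47 and 2.66 FPKM from 0, 60 and 43 fragments. The count of 0 allows up to 3 fragments or 0.183 FPKM in Control 1, counting error only. Slurp1 was highest in D15L150, at 9.49, 17.8 and 37.0 FPKM, and in D15L200, at 26.2, 17.6 and 6.26. It was at 10.8, 14.5 and 0.443 in D15L100 and at 6.19, 4.08 and 13.0 in D150L150. In D100L150 it was at 0.0597, 4.52 and 2.06 FPKM, from 1, 67 and 31 fragments. These values overlapped Control, with D100L150 2 above the highest Control library. So in D100L150, where all libraries exceeded Control in Lypd3, Lypd5 and Ly6d, 1 of 3 did so in Slurp1. The difference from Control was 2.95 ± 0.91 in D15L150, 2.61 ± 0.91 in D15L200, 1.66 ± 0.91 in D150L150, 1.34 ± 0.91 in D15L100 and 0.04 ± 0.91 in D100L150. Over the mean of the spacer groups it was 1.72 ± 0.71, and 1.05 ± 0.80 without Control 1. With a pseudocount of 0.1 it was 2.65, and voom on recovered fragments gave 3.12. In D100L150 the sign turned to -0.63 ± 0.97 without Control 1, to -0.50 ± 1.00 without D100L150 2 and to -0.07 ± 1.05 without D100L150 3.

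Plaur, the urokinase receptor gene, did not follow the epidermal members. It was at 130, 33.1 and 57.1 FPKM in Control 1, 2 and 3, at 220, 34.7 and 45.5 in D100L150 and at 19.1, 31.9 and 127 in D15L200. In each of these groups 1 library was more than double the others, namely Control 1, D100L150 1 and D15L200 3. D150L150 had 67.1, 64.0 and 14.1, D15L100 43.2, 42.2 and 31.8, and D15L150 27.4, 15.9 and 17.1. D15L150 was the single group that lay wholly below Control, as 14% of all genes did in that group. Differences from Control ran from -1.63 ± 0.80 in D15L150 to 0.17 ± 0.80 in D100L150, and the one over the spacer groups was -0.67 ± 0.62, or -0.15 ± 0.71 without Control 1. In D100L150 the sign turned to -0.65 ± 0.77 without D100L150 1, to -0.29 ± 0.88 without Control 2 and to -0.55 ± 0.76 with the skeletal muscle covariate described below.

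Counted over the 6 genes, 4 were past an adjusted p of 0.05 in the mean of the spacer groups (limma with Benjamini-Hochberg adjustment over 13078 genes), all higher, where 2.84% of all genes were higher. These were Lypd3, Lypd5, Ly6d and Ly6g6c. In D15L200, D100L150 and D150L150 3 genes were higher (Lypd3, Lypd5 and Ly6d), against 1.43%, 1.06% and 2.03% of all genes, and no member was lower, against 0.13%, 0.321% and 0.398%. In either direction 1.56%, 1.38% and 2.42% of all genes were called in these 3 groups. In D15L100 and D15L150 none was called by limma or voom, with 0% of all genes called, and 3 and 5 of the 6 genes had an unadjusted p under 0.05. The share of all genes under that unadjusted p is not reported here. The genes were chosen with these comparisons known, so nothing is read from these counts. Without Control 1 no member was called in any of the 6 comparisons. The count in D15L200 was also 0 without Control 2 or without any 1 of the D15L200 libraries. In D100L150 it was 0 without D100L150 1 and 1 without Control 2. In D150L150 it was 0 without D150L150 1 and 1 without D150L150 3. In D15L150 it was 3 without D15L100 2 or D15L100 3, and 1 without D15L150 1. With the replicate number as a block it was 0 in D15L200 and 1 in D100L150. The same 4 genes plus Slurp1 lay above all Control libraries in D15L150, D15L200 and D150L150, where 12.4%, 11.2% and 14.3% of all genes did. In D100L150 4 genes did, against 11% of all genes, and in D15L100 1 gene, Lypd3, against 2.1%. No member lay below all Control libraries in D15L100, where 3.97% of all genes did, or in all 15 spacer libraries, where 0.719% did. The median difference of the 6 genes over the spacer groups was 2.08, beside -0.04 over all genes tested.

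**Figure D2:**
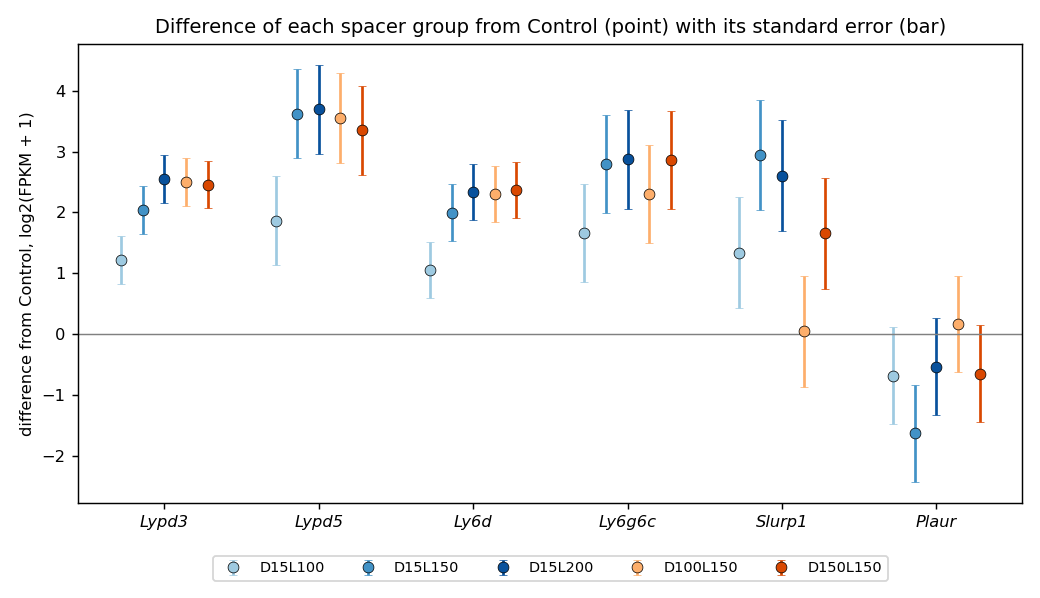
Difference of each spacer group from Control on the log2(FPKM + 1) scale (point) with its standard error from the limma fit (bar) for the 6 genes. Lypd3, Lypd5, Ly6d and Ly6g6c are above 0 in all 5 groups with their smallest value in D15L100, Slurp1 is at 0.04 in D100L150 and 2.95 in D15L150, and Plaur runs from -1.63 to 0.17; all 5 groups share the same Control libraries.

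Comparisons among the spacer groups use no Control mean, though the Control libraries enter the fit's shared estimate of spread, and none of the 6 genes passed there. Of 36 tests, 6 genes in 6 pairs of groups that differ in 1 label number, none was past an adjusted p of 0.05 in limma and 6 had an unadjusted p under 0.05. In these pairs 0% of all genes were called, and voom also called none. The share of all genes at an unadjusted p under 0.05 in these pairs is not reported here. The largest difference was in Slurp1, which was lower in D100L150 than in D15L150 by 2.90 on the log2 scale (SE 0.91, adjusted p = 0.412 in limma). Plaur was higher in D100L150 than in D15L150 by 1.80 ± 0.80 (adjusted p = 0.43 in limma). At D15, Lypd3 was higher in D15L200 than in D15L100 by 1.33 ± 0.39, Lypd5 by 1.83 ± 0.73 and Ly6d by 1.30 ± 0.46 (adjusted p = 0.849 each in limma). Between D150L150 and D100L150 the differences of Lypd3, Lypd5 and Ly6d were -0.04 ± 0.39, -0.20 ± 0.73 and 0.06 ± 0.46. The moderated F test over the 3 groups at D15 gave an adjusted p = 0.993 for each of the 6 genes, and that over the 3 groups at L150 gave 0.743 for Slurp1 and Plaur and 0.82 to 0.976 for the others. Both F tests called 0% of all genes.

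The epidermal members varied together from library to library within the groups as well. Deviations of log2 values from the group means correlated at 0.87 between Lypd3 and Ly6d, 0.86 between Lypd5 and Ly6g6c, 0.84 between Lypd3 and Lypd5 and 0.82 between Ly6g6c and Slurp1. These and the following correlations run over 18 libraries, whose values share library, depth and tissue content, and are given as descriptions. Slurp1 followed Lypd3 less closely, at 0.43. Plaur had 0.22 with Lypd3, -0.41 with Ly6g6c and -0.63 with Slurp1. Thus the libraries with much Plaur had little Slurp1 for their group. In Control, D100L150, D15L200 and D15L150 the library highest in Plaur was the one lowest in Slurp1, at 0, 0.0597, 6.26 and 9.49 FPKM. In D15L100 and D150L150 it was not.

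Plaur levels went with several marker lists, most closely the neutrophil list. Its within-group deviations correlated at 0.97 with the mean level of 10 neutrophil markers, 2 of which, S100a8 and S100a9, activated keratinocytes also make. The summed level of that list was 6572, 10386 and 8997 FPKM in Control 1, D100L150 1 and D15L200 3, and 830 to 5563 in the other 15 libraries. Most of these 3 sums was S100a8 and S100a9. They were at 2109 and 3768 FPKM in Control 1, 3646 and 5705 in D100L150 1 and 2890 and 5206 in D15L200 3. The sum is therefore not a measure of neutrophils alone. Il1b, encoding an inflammatory cytokine, was at 564, 690 and 678 FPKM in these 3 libraries and at 20.0 to 310 elsewhere. Csf3r, the receptor gene for granulocyte growth factor, was at 35.3, 78.0 and 56.3 there and at most 48.6 elsewhere, so on that marker Control 1 was within the range of the rest. Ly6g, the family member that defines mouse neutrophils, was at 1.02, 3.53 and 2.87 FPKM and at most 1.11 elsewhere. On Ly6g too, Control 1 was within the range of the rest. Mpo and Elane of immature neutrophils were near 0, at no more than 0.20 and 0.06. Macrophage markers as a list correlated with Plaur at -0.14, though Cd14, which is in that list, had 0.992. Endothelial markers as a list had 0.78, wound-activated keratinocyte markers 0.73 and fibroblast markers -0.76. The wound-activated list also holds S100a8 and S100a9. The part of leukocyte, endothelial or keratinocyte content in the Plaur values was not tested.

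**Figure D3:**
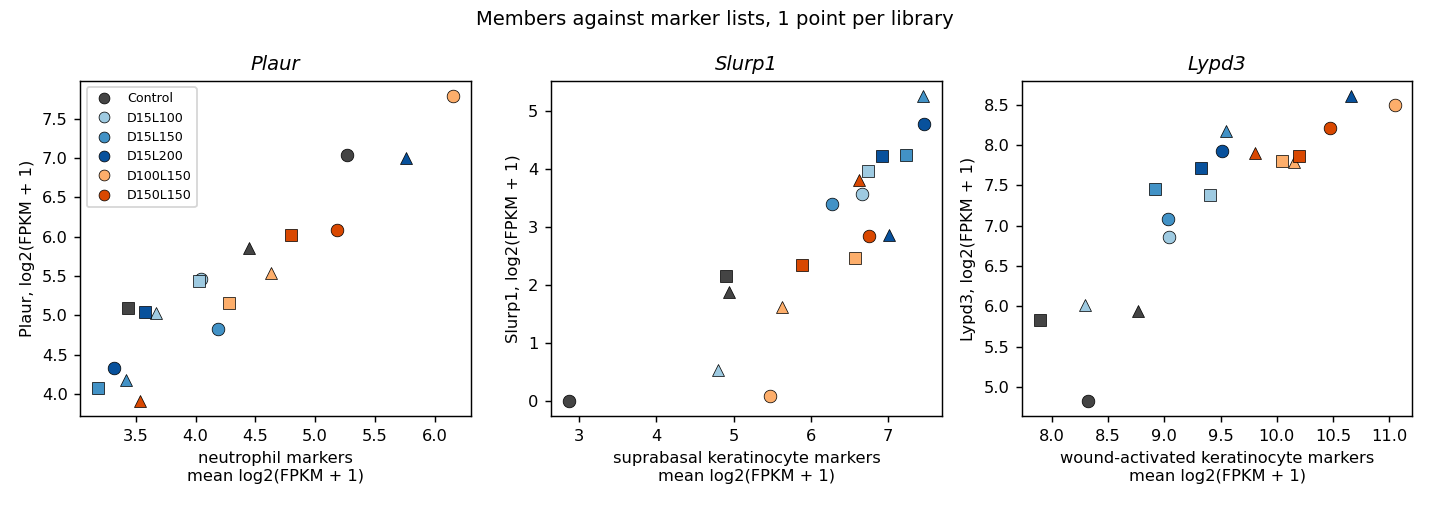
Plaur, Slurp1 and Lypd3 (log2(FPKM + 1), vertical axes) against the mean log2(FPKM + 1) of neutrophil, suprabasal and wound-activated keratinocyte markers (horizontal axes), 1 point per library; colours give the group, and circle, square and triangle replicates 1, 2 and 3. Control 1, D100L150 1 and D15L200 3 are highest in Plaur and in neutrophil markers, and Slurp1 is near 0 in Control 1 and D100L150 1.

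Within groups, the 5 other genes went with several lists, not all of them epidermal. Ly6g6c and Lypd5 went most closely with the 12 suprabasal markers, at 0.94 and 0.83. Slurp1 went most closely with 8 sebaceous gland markers, at 0.93, then with the suprabasal list, at 0.88. The sebaceous list also had 0.85 with Ly6g6c, 0.64 with Lypd5, 0.62 with Ly6d and 0.37 with Lypd3. Ly6d had 0.81 with the basal and 0.79 with the suprabasal list. Lypd3 had 0.75 with the 7 wound-activated markers, such as Krt6a and Krt16, 0.71 with the basal and 0.68 with the suprabasal list. For Ly6d and Lypd3 these values lie close together and do not rank the lists. The endothelial list had -0.80 with Slurp1, -0.78 with Ly6g6c, -0.65 with Ly6d, -0.49 with Lypd5 and -0.30 with Lypd3. The fibroblast list ran from -0.05 with Lypd3 to 0.71 with Slurp1. The part of tissue content in these genes' values was not tested. The lists differed between groups, with summed suprabasal levels of 1442 to 3514 FPKM in D100L150 and 4847 to 6868 in D15L200. Summed wound-activated levels were 8260 to 18188 in D100L150 and 3954 to 6457 in D15L150. S100a8 and S100a9 of this list are also in the neutrophil list. They reached 3646 and 5705 FPKM in D100L150, and 621 and 818 in D15L150.

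**Figure D4:**
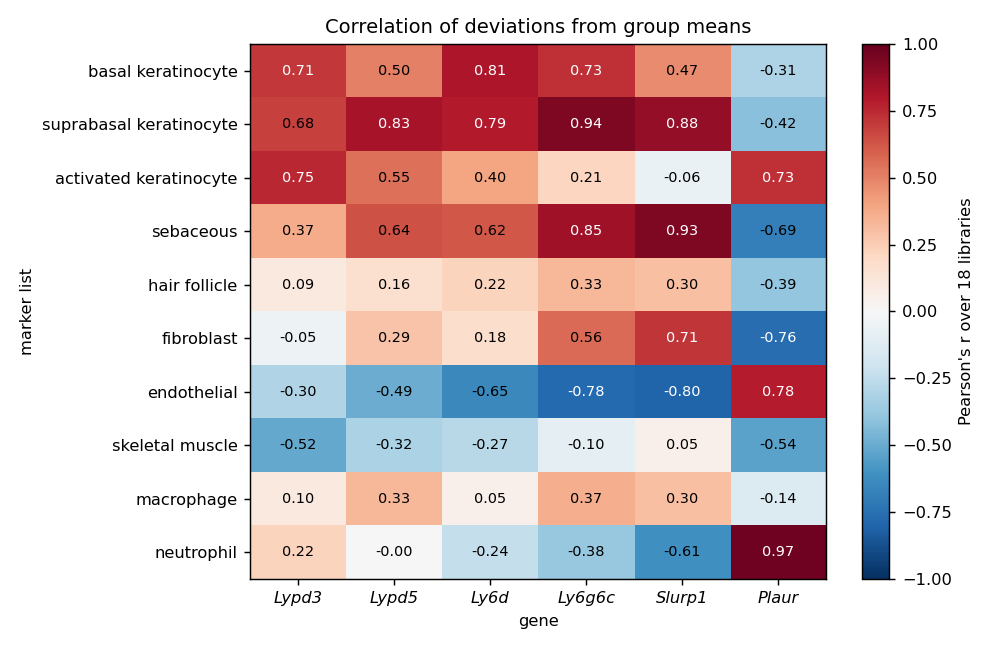
Pearson's r between the deviations from group means of each gene (columns) and of the mean log2(FPKM + 1) of each marker list (rows), over 18 libraries, on a colour scale from -1 to 1. The suprabasal row runs from 0.68 in Lypd3 to 0.94 in Ly6g6c for the 5 epidermal genes, and the neutrophil row is 0.97 for Plaur.

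In the mean of the spacer groups against Control, 2.84% of all genes were called higher and 0.726% lower. Of the 10 basal keratinocyte markers 1 rose with the spacers, Krt14, by 1.28 ± 0.25 (adjusted p = 0.0158, limma). Of these markers 9 of 10 had a positive difference, with a median of 0.84. Of the 12 suprabasal markers 7 rose and all 12 were positive, with a median of 2.19. Of the 7 wound-activated markers 5 rose, with a median of 1.84, and no other was positive. These others were S100a8 and S100a9, the latter at -0.35 ± 0.73. The suprabasal and wound-activated medians are close to the 2.08 of the 6 genes, which were chosen with this contrast known. The basal median is lower, and nothing is read from these medians. All 8 endothelial markers had a negative difference, with a median of -0.81. None of them was called, and 7 had an unadjusted p under 0.05 in limma. Their summed level was 697 FPKM in Control 1 and 193 and 319 in Control 2 and 3. Without Control 1 limma called no gene at all, with 1428 genes at an unadjusted p under 0.05. When the mean log2 level of the 10 basal markers entered the fit as a covariate, the difference of the spacer groups was 2.29 ± 0.67 for Lypd5, 1.47 ± 0.30 for Lypd3 and 1.09 ± 0.29 for Ly6d. It was 1.02 ± 0.59 for Ly6g6c, 0.64 ± 0.85 for Slurp1 and -0.06 ± 0.80 for Plaur. With that covariate no member and none of the 13078 genes was called, and in D100L150 the difference of Slurp1 turned to -1.08 ± 1.01. The marker level itself differs between groups, so this fit does not separate epidermal amount from level per cell. When skeletal muscle marker levels were the covariate instead, the differences of the 4 called genes were 1.89 to 2.99.

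The 3 genes most alike each member over the 18 libraries were named by their correlation. For Lypd3 these were Sult2b1, a sterol sulfotransferase (r = 0.988), the desmosomal cadherin gene Dsg1b (0.980) and Hopx (0.980). For Lypd5 they were Cyp2b10, Cdsn, encoding corneodesmosin, and Sdr9c7, a dehydrogenase of the skin barrier lipids (0.981, 0.978 and 0.977). Ly6d was most like Sqle, an enzyme of cholesterol synthesis, Tmem79 and the desmosome gene Perp (0.982, 0.982 and 0.981). Ly6g6c was most like Pdzk1ip1, the phospholipase gene Pla2g2f and Sbsn (0.990, 0.986 and 0.982). Slurp1 was most like the filaggrin family gene Flg2 and the Skint family genes Skint9 and Skint10 (0.987, 0.985 and 0.969). Plaur was most like Cd14, the coreceptor for bacterial lipopolysaccharide, and the myeloid lectin genes Clec4d and Clec4e (0.992, 0.982 and 0.981).

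Once group means were removed, part of these neighbours stayed. Plaur was still nearest to Cd14 (0.992), then Samsn1 and the myeloid receptor gene Trem1. Slurp1 kept Flg2 (0.985) and Skint9, joined by Serpinb7, and Ly6d kept Perp (0.960) beside Hsd17b7 and Cblc. Ly6g6c was nearest to Aldh3b2 (0.990), Pdzk1ip1 and Elovl4, an elongase for ceramide fatty acids. Lypd3 was nearest to Plcd1 (0.963), Sult2b1 and Dsg1b. For Lypd5 they were Rnf225 (0.960), Alox12b, a lipoxygenase of barrier formation, and Dmkn.

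The rest of the Ly6/uPAR family was compared in the same way, spacer groups against Control. Of a list of 38 further family genes, 32 were in the table, 16 passed the filter, 2 rose and none fell, where 3.56% of all genes were called in either direction. Their median difference was 0.27, beside -0.04 over all genes. Ly6m rose by 2.24 ± 0.33 (adjusted p = 0.00674, limma), from 0.960, 1.55 and 1.28 FPKM in Control to between 2.03 in D15L100 3 and 18.6 in D15L200 3. All 15 spacer libraries lay above Control. Pinlyp, which lies between Plaur and Lypd3 on chromosome 7, rose by 1.36 ± 0.32 (adjusted p = 0.033, limma). It was at 1.81, 6.04 and 4.43 FPKM in Control and at 4.84 to 8.56 in D15L100, which overlapped Control. In the other spacer groups it ran from 6.42 in D15L150 to 31.5 in D150L150 3. Without Control 1 the limma adjusted p was 0.127 for Ly6m and 0.325 for Pinlyp, and this family count was 0, against 5 without D15L100 3 and 1 without D15L200 1. With the replicate block it was 1, since Pinlyp then had an adjusted p of 0.0567 in limma. Ly6g6e, which lies near Ly6g6c on chromosome 17 with Ly6g6d between them, had 1.68 ± 0.46 (adjusted p = 0.0586, limma), and Lypd6b had 0.74 ± 0.20 (adjusted p = 0.0608, limma).

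The members' share in the family's RNA differed between groups. Lypd3, Lypd5, Ly6d, Ly6g6c, Slurp1 and Plaur together made up 22.5 to 33.8% of the summed FPKM of these 6 and the 32 further family genes in Control, and 19.6 to 47.2% in D15L100. In the other spacer groups the share was 40.8 to 72.1%. Much of the remainder was Ly6a, a marker of stromal and progenitor cells, which averaged 517 FPKM in Control and 525 to 695 in the spacer groups, a difference of 0.35 ± 0.27 (adjusted p = 0.46, limma). Ly6a, Ly6c1, Ly6c2, Ly6i and Ly6g are similar in sequence, so reads may be split uncertainly among them. Slurp2, which lies near Slurp1 on chromosome 15 with Lypd2 between them and was chosen here after its values were seen, was at 0, 1.43 and 0.765 FPKM in Control, at 5.12, 13.4 and 14.8 in D15L150 and at 0, 2.50 and 0.672 in D100L150. Like Slurp1 it overlapped Control in D100L150, where library 2 was above the highest Control value, with 1.47 ± 0.54 over the spacer groups (adjusted p = 0.136, limma).

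Of 20 genes of the urokinase system around Plaur 17 were tested. Their median difference was -0.03, beside -0.04 over all genes. Among them 1 fell, none rose and 16 did not pass, where 3.56% of all genes were called in either direction. Serpine2, an inhibitor of urokinase and thrombin, was at 76.9, 38.2 and 32.5 FPKM in Control. It had its lowest group mean in D150L150, at 14.5, 17.9 and 15.5, and overlapped Control in D15L100, at 30.3, 22.2 and 32.8. Its difference was -1.07 ± 0.24 (adjusted p = 0.0288, limma), with 0.305 without Control 1, 0.051 without Control 2 and 0.054 with the replicate block. The integrin genes Itgb5 and Itgb3 and the plasminogen receptor gene Plgrkt had -0.28 ± 0.14, -0.37 ± 0.24 and -0.19 ± 0.11. Plau, the ligand urokinase itself and chosen after its values were seen, was at 50.2 ± 7.25 FPKM in Control, 42.1 ± 2.26 in D15L150 and 62.7 ± 23.2 in D100L150, and over the spacer groups it differed by -0.04 ± 0.14 (adjusted p = 0.906, limma). In D100L150 1, the library highest in Plaur, Plau was at 89.2 FPKM, above every other library. The urokinase inhibitor gene Serpinb2, also chosen afterwards, was at 934 FPKM in D100L150 1 and at most 260 in the other 17 libraries.

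Partners of the other members gave no call. Of 8 genes for binding partners reported for the Lypd3 protein 6 were tested, and none passed in limma or voom. Their median was 0.83, all 6 were positive, and 4 had an unadjusted p under 0.05. The laminin subunit genes Lama3 and Lamb3 had 1.02 ± 0.30 and 0.82 ± 0.28, and the integrin gene Itgb4 had 0.83 ± 0.28 (adjusted p = 0.0717, 0.111 and 0.104, limma). Lama3, Lamb3 and Itgb4 are also in the basal keratinocyte list. Without D15L100 1, 1 of the 6 passed. Agr2 and Agr3, the secreted ligands, reached no more than 0.174 and 0.0357 FPKM. Of the nicotinic receptor subunits outside the muscle type, on which Slurp1 acts, 9 were in the table and none passed the filter, the highest being Chrna7 at 0.298 FPKM. Of 33 genes of GPI anchor synthesis and attachment 32 were tested and none passed in limma or voom, 5 having an unadjusted p under 0.05, with a median of 0.03. Pigp, Pigg, Pgap2 and Gpld1 had the smallest p of that list, at -0.49 ± 0.19, 0.46 ± 0.18, 0.34 ± 0.14 and 0.75 ± 0.34 (adjusted p = 0.145, 0.15, 0.178 and 0.207, limma).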

How the data were processed

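RNA from mouse skin flaps was sequenced in 18 libraries, and the authors deposited 1 table of FPKM values. Per the submitters' processing notes, the mm10 build and the tools DESeq2, R 3.2.0, HTSeq, HISAT2 and fastp were used, with no role or order given. The sources used here give no annotation and no strand setting. The deposited FPKM values were whole multiples of 1 fragment in 27742 of 27743 genes (relative tolerance 1e-07), which gave the fragments behind each value. Genes reaching 1 FPKM in 3 or more libraries were kept. A limma model (limma 3.58.1, R 4.3.3) of log2(FPKM + 1), with 1 mean per group, trend and robust moderation, was fitted to all 18 libraries, with Benjamini-Hochberg adjustment over 13078 genes. It was tested on simulated data. The members and lists were chosen with earlier results of these data known. Counts of members or list genes at an unadjusted p stand without the share of all genes at it, and nothing is read from them. Named genes were the 6 members, the 4 smallest p of each pathway list and the 3 genes most correlated with each member, predicted genes left out; some list genes are not reported here. Alternatives were a pseudocount of 0.1, no filter, quantile and TPM scaling, a replicate block, the compared groups alone, 2 covariates, voom and leaving out each library.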

Additional observations from a re-analysis of the deposited data

How the results depend on the processing

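In the mean of the spacer groups against Control, each of the 6 genes kept the sign of its difference in all 26 alternatives. The ranges were 1.47 to 2.36 for Lypd3, 2.29 to 3.69 for Lypd5, 1.09 to 2.30 for Ly6d, 1.02 to 3.09 for Ly6g6c, 0.64 to 3.12 for Slurp1 and -1.12 to -0.06 for Plaur. The alternatives reuse the same libraries, and the genes were chosen with this contrast known, so a kept sign says little. For Plaur the smallest difference was well within its SE. In single groups the sign also held for all genes except Plaur in D15L200 (25 of 27 alternatives), D100L150 (24) and D150L150 (25) and Slurp1 in D100L150 (23). Calls were less stable, and the cause was not tested. The number of members called against Control in the mean of the spacer groups was 4, and 0 with the basal keratinocyte covariate. In D15L150 it was 0, and 2 under quantile scaling, TPM scaling or the muscle covariate. In D15L200 it was 3, and 0 with no filter, the replicate block, the basal covariate or only the compared groups, and 1 with the muscle covariate or voom. In D100L150 it was 3, and 1 with no filter, the replicate block or the muscle covariate, and 0 with the basal covariate or only the compared groups. In D150L150 it was 3, and 1 with no filter and 0 with the muscle covariate, the basal covariate or only the compared groups. Leaving out 1 library gave 0 to 4 members called in the mean of the spacer groups, 0 to 3 in D15L150, D15L200 and D100L150 and 0 to 4 in D150L150, and 0 among the spacer groups. Of the other family genes 2 were called, and 4 with a pseudocount of 0.1, 1 with no filter, the replicate block, the muscle covariate or voom, 0 with the basal covariate, and 0 to 5 without 1 library. Of the urokinase system 1 was called, and 0 with no filter, the replicate block or either covariate, and 0 to 1 without 1 library. Of the Lypd3 partners 0 to 1 were called without 1 library. Fitting only the compared groups is the full fit for the mean of the spacer groups. The labels do not say whether the replicate numbers pair the libraries, and these values cannot decide it. Same-numbered libraries of different groups had deviations that correlated at -0.66 to 0.53. Their median was 0.02, beside 0.02 for other pairs, and 18 of 45 pairs were above 0.1. Of 18 libraries 6 correlated best with their own number. Over all genes 466 were called in the mean of the spacer groups, and 227 with no filter, 256 with the replicate block, 271 with voom, 192 with the muscle covariate, and 0 with the basal covariate or without Control 1 (560 and 1428 at an unadjusted p under 0.05, limma). For the members and lists the replicate block changed no count by over 1.5 times beyond those given above. Depth limits Slurp1 most, with 0 to 557 fragments per library.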
